A study of Homo sapiens with 24 samples.

Results

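The genes described here are 29 genes of cholesterol and fatty acid synthesis, chosen by their function and found in the count table by gene symbol, among 61551 genes counted. They comprise 18 enzymes of sterol synthesis, 4 genes that regulate or carry sterols and 7 enzymes of fatty acid synthesis. All 29 passed the filter on low counts in each of the 14 comparisons made.

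RNA was sequenced from H9 cells, an established human embryonic stem cell (hESC) line, of 4 genotypes at 2 stages, with 3 libraries in each of 8 conditions. HAR123 is a human accelerated region that lies in an intron of SMG6. The genotypes were unedited cells with the human element (hHAR123, WT in the labels), a CRISPR-Cas9 deletion (HAR123-KO), and lines whose human element was replaced by its chimpanzee (cHAR123) or mouse (mHAR123) ortholog. The stages were untreated hESCs (ESC), maintained in StemFlex medium, and neuroectoderm (ECTO). For ECTO, confluent hESCs of every genotype were kept 5 days in knockout serum replacement medium with Noggin and SB431542. Noggin is a BMP antagonist, and SB431542 is an inhibitor of TGF-beta type I receptors. Per the study, 2 clones of each genotype were used for RNA-seq, so the 3 libraries of a condition cannot all be different clones. The labels do not tie a library to a clone or say that libraries came from separate cultures. The p-values therefore measure only the spread between these libraries. Counting over exons does not cover the deleted element, and the deletion was therefore not checked here.

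Total counts were 23334732 to 35198684 in ESC libraries and 21022748 to 25978892 in ECTO libraries, and no pair of replicates differed by as little as sampling noise. Of 8 pluripotency markers, all 8 were lower in hHAR123 ECTO than in hHAR123 ESC, and all 10 neuroectoderm markers were higher. PAX6, a neuroectoderm transcription factor, rose from a mean level of 0.20 to 406 CPM, so the stage labels matched the markers. The names of 2 ECTO groups were uncertain. Base means printed in the gene lists that accompany the study were compared with each column, within 0.1%. For cHAR123 ECTO, 117 of 117 listed genes matched the columns labelled mHAR123 and 2 matched those labelled cHAR123. For mHAR123 ECTO, 114 of 114 matched the columns labelled cHAR123, whereas at the ESC stage the names matched for 87 of 87 and 143 of 143 genes. Below, cHAR123 ECTO and mHAR123 ECTO mean the libraries labelled so, and which of the replacements each group carried cannot be told apart here. Comparisons of ECTO with ESC in these 2 lines may therefore set hESCs of either line against neuroectoderm of the other.

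Cells make cholesterol from acetyl-CoA. The mevalonate pathway builds isoprenoid units, squalene is formed from them and closed into lanosterol, and a chain of demethylases, reductases and isomerases turns lanosterol into cholesterol. Fatty acids are made from the same acetyl-CoA, which ATP citrate lyase releases from citrate. The SREBP transcription factors, encoded by SREBF1 and SREBF2, are held in the endoplasmic reticulum when sterols are plentiful, with the INSIG proteins as anchors, and activate both groups of genes when sterols are scarce.

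SREBPs act at short promoter elements together with NF-Y, which binds CCAAT, and Sp1, which binds GC boxes. Promoter windows of 300 bases, from 250 before to 50 after a RefSeq start (GRCh38.p14), were at hand for 25 of the 29 genes, as 34 windows, some of which overlap because they belong to 1 gene. FASN, ACAT2, FDFT1 and SQLE had no entry. CCAAT, searched on both strands, was in 24 of the 34 windows (70.6%) and in 34.6% of all 35116 windows. The GC box GGGCGG, on both strands, was in 30 of 34 (88.2%, against 45.0% of all windows), and the E-box CACGTG in 4 (11.8%, against 7.26%). The sterol element core TCACNCCAC, on both strands, was in 1 window (2.94%, against 1.13%), that of SREBF2, at -133 to -125 with the start at 0. Some motifs may overlap each other, and a match is a description of letters, not a binding site. The upstream stretches of 4 genes are shown, because MVK and MVD had the largest differences between HAR123-KO and hHAR123 neuroectoderm, SREBF2 encodes the main sterol regulator and holds the sterol element, and EBP, like MVD, has CCAAT 3 times. Capitals mark CCAAT, its reverse complement ATTGG and, in SREBF2, the sterol element. The MVK stretch is chr12:109573581-109573792 (plus strand), which GENCODE places inside the MVK gene but in none of its exons. MVD is chr16:88663149-88663341 (minus strand), with 13 bases of MVD exon and 44 bases of exon of SNAI3-AS1 on the other strand. SREBF2 is chr22:41832855-41833104 (plus strand), which is exon of the opposite-strand SREBF2-AS1 throughout. EBP is chrX:48521558-48521805 (plus strand), with 7 bases of EBP exon at its end.
MVK: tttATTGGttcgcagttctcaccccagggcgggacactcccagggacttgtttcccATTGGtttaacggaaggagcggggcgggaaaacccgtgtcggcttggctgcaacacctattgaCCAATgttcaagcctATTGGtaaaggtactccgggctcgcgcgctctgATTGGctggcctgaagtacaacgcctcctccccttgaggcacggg
MVD: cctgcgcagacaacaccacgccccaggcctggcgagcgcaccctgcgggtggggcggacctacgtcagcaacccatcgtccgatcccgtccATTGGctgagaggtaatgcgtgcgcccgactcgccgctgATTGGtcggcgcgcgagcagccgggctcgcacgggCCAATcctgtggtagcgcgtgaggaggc
SREBF2: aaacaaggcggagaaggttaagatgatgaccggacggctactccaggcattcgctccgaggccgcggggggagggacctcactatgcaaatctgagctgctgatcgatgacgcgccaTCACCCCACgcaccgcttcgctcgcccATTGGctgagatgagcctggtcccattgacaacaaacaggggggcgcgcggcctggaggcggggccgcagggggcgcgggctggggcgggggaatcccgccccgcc
EBP: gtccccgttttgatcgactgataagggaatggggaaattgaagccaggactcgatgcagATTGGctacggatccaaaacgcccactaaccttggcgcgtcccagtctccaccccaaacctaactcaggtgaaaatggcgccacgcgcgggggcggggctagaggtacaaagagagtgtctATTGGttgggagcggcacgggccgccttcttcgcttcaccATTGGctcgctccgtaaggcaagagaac
MVK thus carried CCAAT 5 times in either orientation, MVD and EBP 3 times each and SREBF2 once. The windows of CYP51A1, ELOVL6, FADS1, PMVK and SREBF1 held no CCAAT. Whether CCAAT bears on the differences between genotypes was not tested.

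Levels are given as CPM (counts relative to library size) after TMM scaling, which corrects library sizes for composition, and as CPM per kilobase of exon where genes are compared with each other. In hHAR123 ESC, the most abundant of the 29 genes per kilobase were SCD, the desaturase that makes oleic acid, at 305 CPM per kb, FASN, the fatty acid synthase, at 281, and ACLY, ATP citrate lyase, at 161. The least abundant were MVK, mevalonate kinase, at 3.97 and CYP51A1, the lanosterol demethylase, at 3.14. The same 3 genes led and the same 2 came last in hHAR123 ECTO, where SCD stood at 132 and CYP51A1 at 0.971 CPM per kb. CYP51A1 shares 68.2% of its exon bases with another gene on the same strand. Reads may therefore be missing from its count, and its last place is uncertain. The lowest count of CYP51A1 in any library was 78, so none of the genes was near the limit of detection.

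Neuroectoderm had lower levels of nearly all of these genes than hESCs. The medium changed with the stage in every genotype, so stage and medium cannot be told apart. In hHAR123, 28 of 29 genes were lower and 0 were higher (1 at an unadjusted p under 0.05, 0 with DESeq2) at an adjusted p under 0.01 (quasi-likelihood test of edgeR, Benjamini-Hochberg adjusted over all genes, called passing the test below), where 39.7% of all genes tested were lower and 40.3% higher. The median of the log2 fold changes was -1.29, against 0.05 over all genes tested. The median gene kept 40.8% of its ESC level. In bulk samples, less RNA per cell and fewer cells that express a gene cannot be told apart. Of 8 proliferation markers, 7 were also lower in hHAR123 ECTO, with summed levels of 1299 to 1337 CPM against 2258 to 2279 CPM, and their part in the result was not tested.

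**Figure D1:**
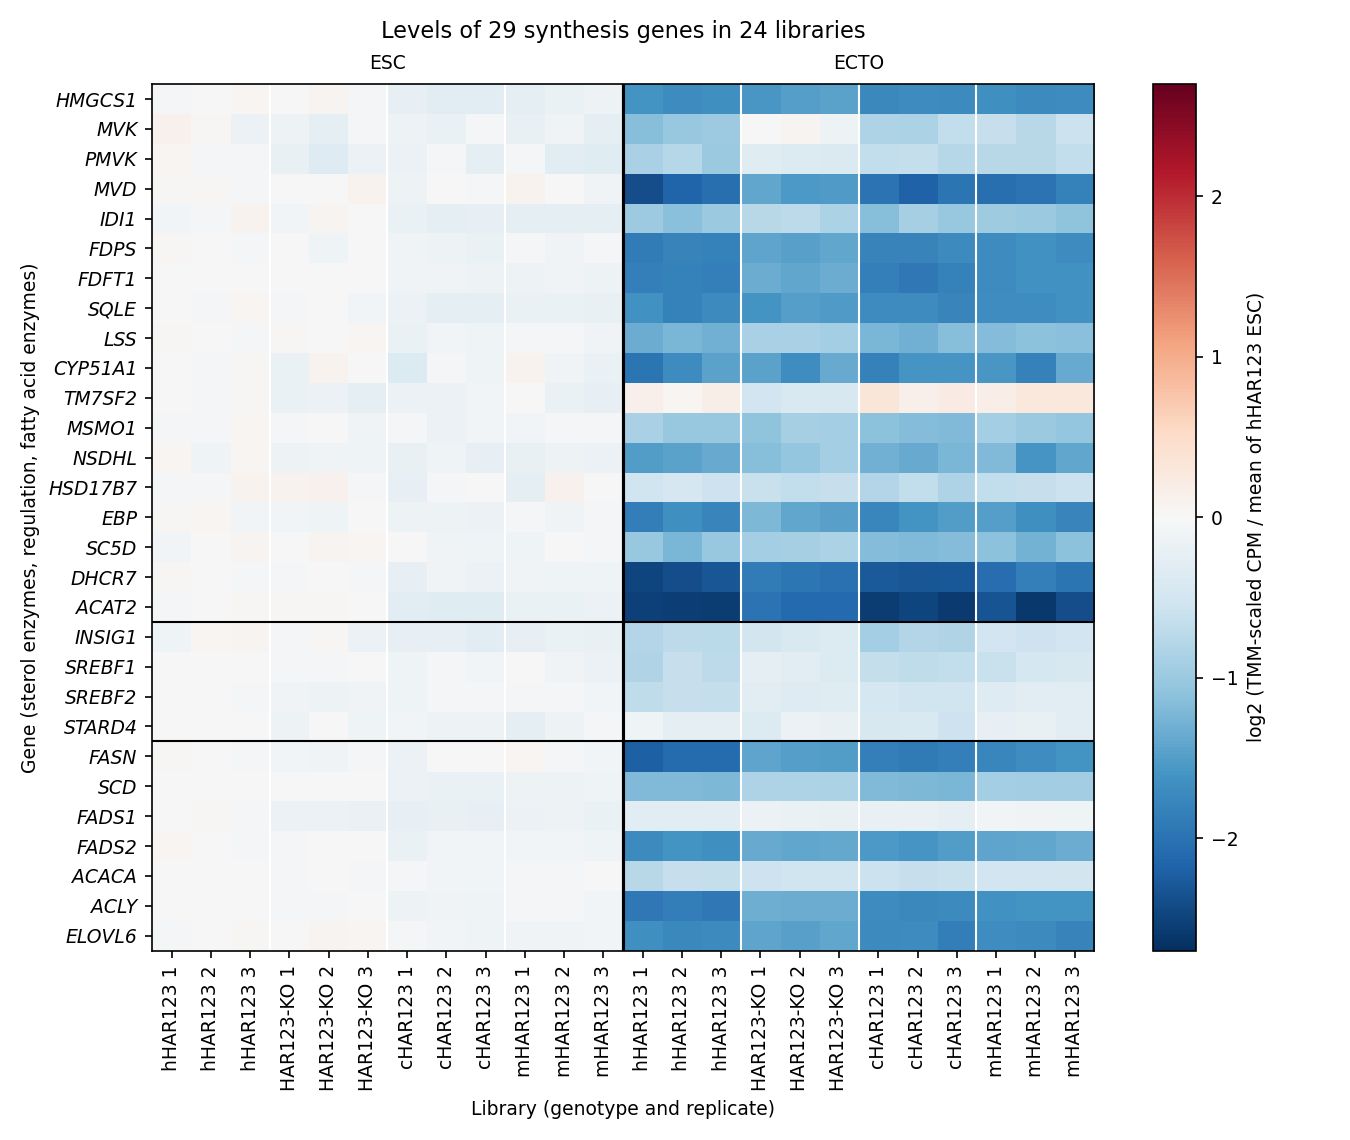
Level of each of the 29 genes (vertical axis, grouped as sterol enzymes, regulation and fatty acid enzymes) in each of the 24 libraries (horizontal axis), as log2 of TMM-scaled CPM relative to the mean of hHAR123 ESC. Blue, lower values fill the ECTO side of the map for nearly all genes, while FADS1 and STARD4 lie only a little below 0, the mean of TM7SF2 lies above 0 in ECTO except in HAR123-KO, and MVK in HAR123-KO ECTO is near 0.

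Among the sterol enzymes, the largest falls were those of ACAT2, the cytosolic thiolase that joins acetyl-CoA units ahead of the pathway, DHCR7, the reductase of the last step from 7-dehydrocholesterol, and MVD, mevalonate diphosphate decarboxylase. ACAT2 was at 185, 190.2 and 192 CPM in the hHAR123 ESC libraries and at 33.0, 32.5 and 32.0 CPM in the ECTO libraries. DHCR7 was at 155, 152 and 149 CPM and then at 27.3, 28.9 and 30.8 CPM. MVD was at 96.8, 96.1 and 90.8 CPM and then at 17.97, 21.04 and 23.2 CPM. For each of these 3 genes, every ECTO library lay far below every ESC library. Their log2 fold changes were -2.53 ± 0.04 (SE; adjusted p = 7.56e-38) for ACAT2, -2.38 ± 0.04 for DHCR7 and -2.18 ± 0.06 for MVD (edgeR quasi-likelihood test).

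TM7SF2, a sterol reductase that acts just after CYP51A1 in a reaction that the lamin B receptor also catalyses, was the gene that did not pass in hHAR123, with a log2 fold change of 0.12 ± 0.05 (SE). It fell by 0.23 on the log2 scale in HAR123-KO but rose by 0.38 in cHAR123 and 0.39 in mHAR123, each past the test. Among the regulators, SREBF2, which encodes the SREBP that drives sterol genes, fell by 0.65 in hHAR123, and SREBF1, which encodes the SREBP that drives fatty acid genes, fell by 0.71. INSIG1 fell by 0.74, and STARD4, a carrier of cholesterol between membranes, fell by 0.20. All 7 fatty acid enzymes fell in hHAR123, from FASN by 2.12 to FADS1, the delta-5 fatty acid desaturase, by 0.28 on the log2 scale. FADS1 and STARD4 no longer passed in hHAR123 when libraries were scaled by total counts alone, at 0.02 and 0.09, while TM7SF2 then passed as higher at 0.41. That scale moved the median log2 fold change of all genes from 0.05 to 0.34.

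The count of falls was 25 of 29 in HAR123-KO (39.4% of all genes lower), 27 in cHAR123 (39.4%) and 26 in mHAR123 (39.5%). Rises were 0 in HAR123-KO in the edgeR test (39.8% of all genes higher; 1 at an unadjusted p under 0.05, 0 with DESeq2), 1 in cHAR123 (39.5%) and 2 in mHAR123 (39.1%), which were TM7SF2 in both replacements and FADS1 by 0.09 in mHAR123. The FADS1 value in mHAR123 did not pass with DESeq2 (0.05), its size factors, no filter on low counts, all 24 libraries in 1 fit or a replicate block, and it was -0.05 with the ECTO names of cHAR123 and mHAR123 exchanged. With total counts as the scale, FADS1 at 0.21 and MVK at 0.35 passed as higher in HAR123-KO, and TM7SF2 at -0.03 no longer passed there. The median log2 fold changes were -0.90 in HAR123-KO, -1.09 in cHAR123 and -1.09 in mHAR123. With a fold threshold of |log2| over 1 as well, 19 genes were lower in hHAR123 and 13 in HAR123-KO, where 21.2% and 19.1% of all genes were. MVK, which phosphorylates mevalonate, was among the 4 genes that did not pass as lower in HAR123-KO. Its stage difference was -1.04 ± 0.07 (SE) in hHAR123, -0.66 ± 0.07 in cHAR123, -0.46 ± 0.07 in mHAR123 and 0.15 ± 0.06 in HAR123-KO, the last of which did not pass (adjusted p = 0.0232, edgeR quasi-likelihood test). The others were PMVK, the next kinase of the pathway, at -0.11, STARD4 at -0.14 and FADS1 at 0.01. Across the settings other than left-out libraries, with exchanged ECTO names included, the MVK stage difference ranged from -0.71 to -0.45 in cHAR123. In mHAR123 its range was -0.61 to -0.29, so the order of these lines for MVK is uncertain.

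**Figure D2:**
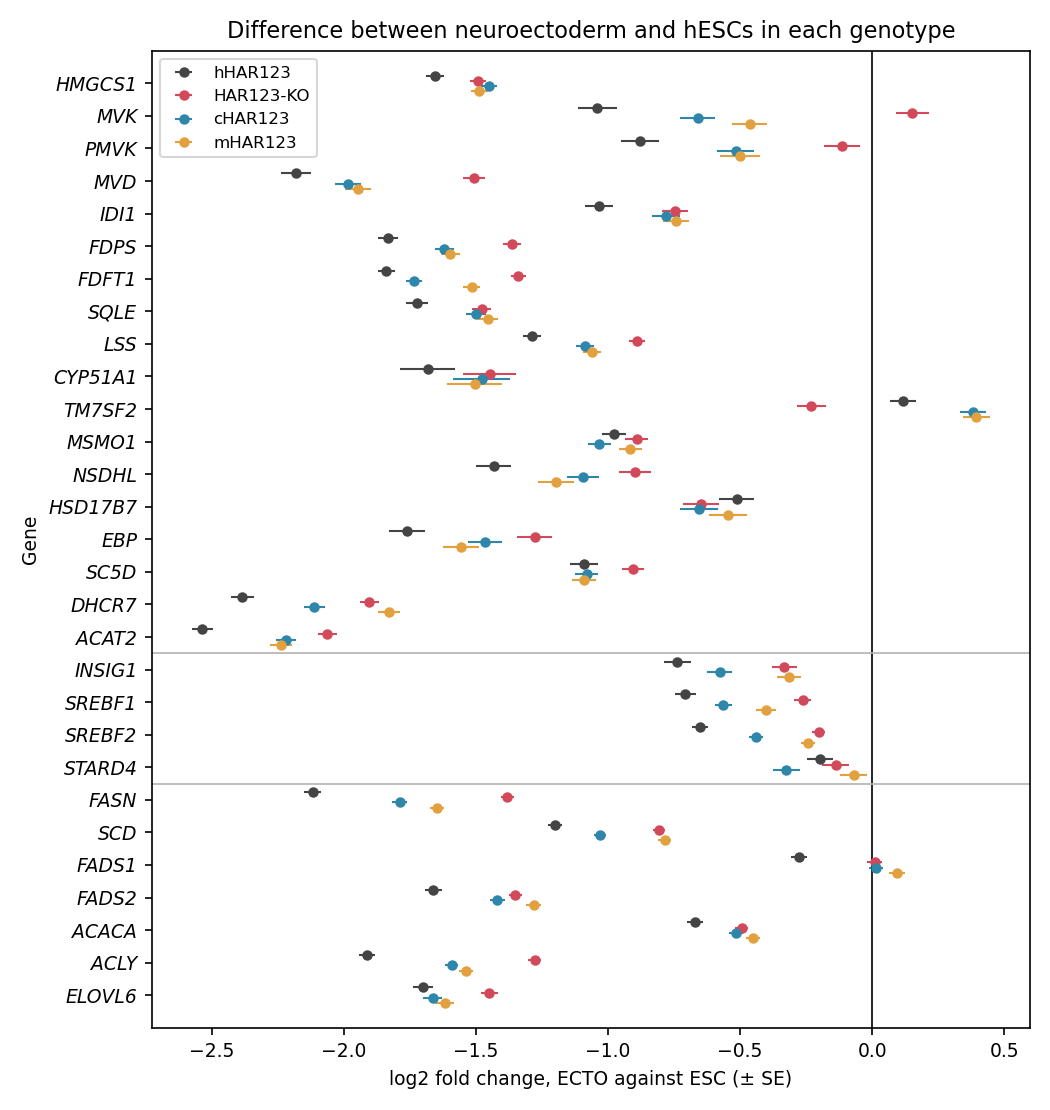
Log2 fold change between ECTO and ESC (horizontal axis, ± SE of the edgeR fit) for each of the 29 genes in the 4 genotypes as labelled. Most points lie left of 0, hHAR123 lies farthest left for most genes, and MVK runs from -1.04 in hHAR123 to 0.15 in HAR123-KO.

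At the ESC stage, deletion of HAR123 was accompanied by small differences in 2 of the 29 genes. Both were lower, where 5.29% of all genes tested were lower and 7.06% higher, and 0 were higher in edgeR's quasi-likelihood test (1 at an unadjusted p under 0.05, 0 with DESeq2). The median log2 fold change of the 29 genes was -0.00. FADS1 was at 230.5, 233 and 224 CPM in hHAR123 and at 207, 205 and 203 CPM in HAR123-KO, without overlap. TM7SF2 was at 37.3, 35.8 and 37.5 CPM in hHAR123 and at 32.6, 33.1 and 30.9 CPM in HAR123-KO, again without overlap. The log2 fold changes were -0.14 ± 0.03 (SE; adjusted p = 0.000146) for FADS1 and -0.18 ± 0.05 (SE; adjusted p = 0.0074) for TM7SF2 (edgeR quasi-likelihood test). Without any single hHAR123 library or without HAR123-KO replicate 1, only 1 of the 2 passed.

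The replacement lines differed a little more from hHAR123 at this stage. In cHAR123 ESC, 13 genes were lower (8.6% of all genes) and 0 higher (7.72%), with a median log2 fold change of -0.10. The largest was that of ACAT2, at 156, 151 and 151 CPM against 185 to 192 CPM in hHAR123, which was -0.28 ± 0.03 (SE; adjusted p = 2.08e-09, edgeR quasi-likelihood test). HMGCS1, the synthase that makes HMG-CoA, was lower by -0.24, INSIG1 by -0.23, IDI1, the isomerase of isoprenoid units, by -0.20, and SQLE, the squalene epoxidase, by -0.19. The count fell to 7 without hHAR123 replicate 1 or without cHAR123 replicate 3, to 8 without hHAR123 replicate 2 and to 7 with total counts as the scale. In mHAR123 ESC, 8 genes were lower (10.2% of all genes) and 0 higher (9.02%), with a median of -0.07, and IDI1 had the largest difference at -0.24. With total counts as the scale the median in mHAR123 was -0.03, and 12 of the 29 values lay above 0 in place of 2. In both lines 0 genes were higher at an unadjusted p under 0.05 and with DESeq2 as well. Over the 3 ESC comparisons, the log2 fold changes of the 29 genes lay between -0.28 and 0.07. Of 8 pluripotency markers, 5 were lower and 2 higher in each replacement line, with summed levels of 7929 to 7993 CPM in cHAR123 and 7969 to 8022 CPM in mHAR123 against 8465 to 8509 CPM in hHAR123. Of 8 proliferation markers, 5 were lower in cHAR123 and 4 in mHAR123, with sums of 2041 to 2060 CPM and 2054 to 2063 CPM against 2258 to 2279 CPM, and the part of these markers was not tested.

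In neuroectoderm, HAR123-KO had higher levels of most of these genes than hHAR123. Of 29 genes, 24 were higher and 1 was lower, where 24.2% of all genes tested were higher and 19.9% lower, so this comparison had many calls throughout. The median log2 fold change of the 29 genes was 0.35, a 1.27-fold difference, against 0.00 over all genes tested. By role, 14 of 18 sterol enzymes were higher and 1 lower (median 0.42), 3 of 4 regulators were higher (median 0.34), and all 7 fatty acid enzymes were higher (median 0.30). The genes that did not pass were CYP51A1 at 0.22, MSMO1, a sterol methyl oxidase, at 0.04, STARD4 at -0.02 and HSD17B7, a sterol ketone reductase, at -0.09.

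**Figure D3:**
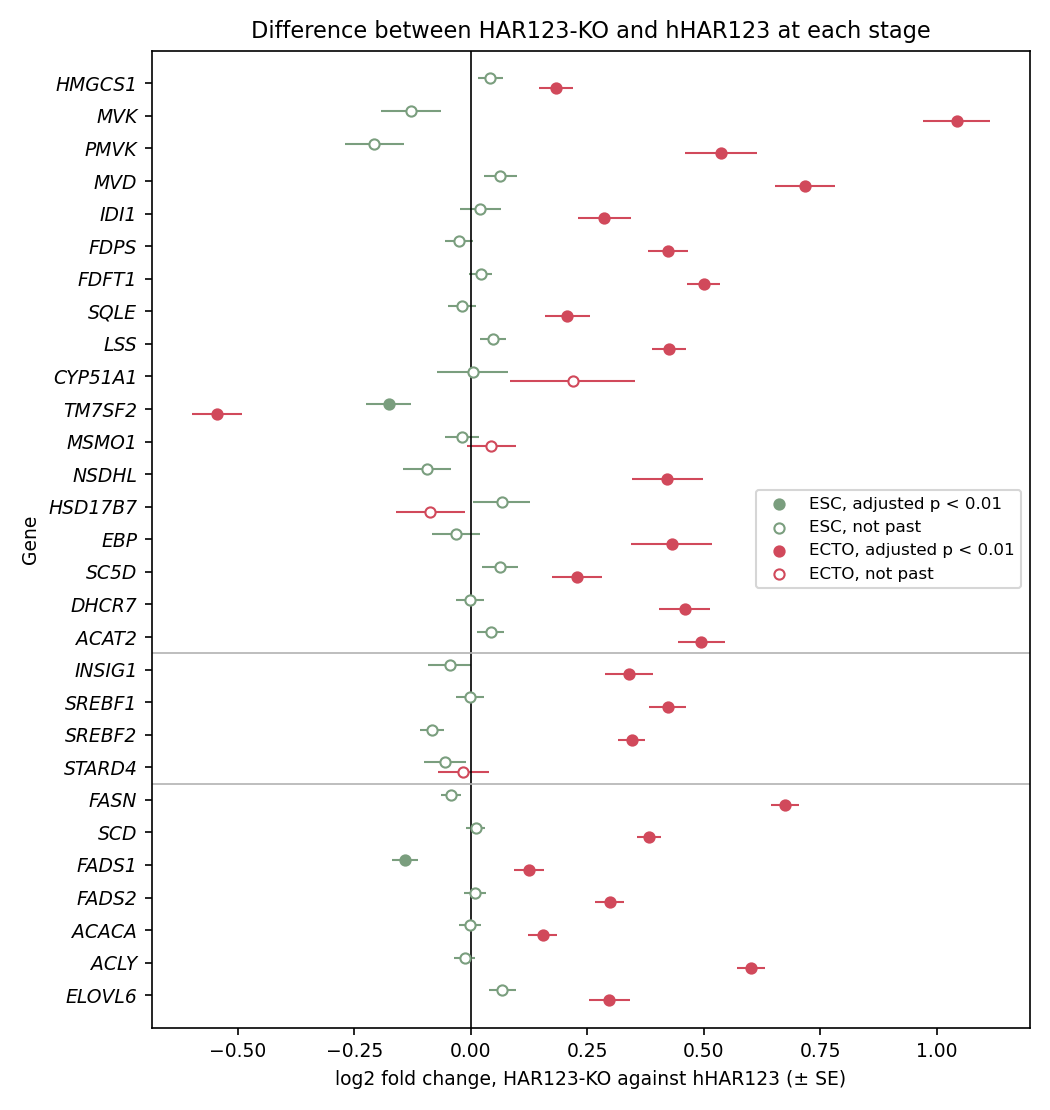
Log2 fold change of HAR123-KO against hHAR123 (horizontal axis, ± SE of the edgeR fit) for each of the 29 genes, at the ESC stage in green and in ECTO in red. Filled points passed the test at an adjusted p under 0.01. ESC points lie close to 0, and ECTO points lie right of 0 for 26 genes, with MVK farthest at 1.04 and TM7SF2 on the left at -0.54.

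MVK showed the largest difference. It was at 11.6, 12.7 and 13.1 CPM in hHAR123 and at 25.7, 27.0 and 23.3 CPM in HAR123-KO. The groups did not overlap, and the HAR123-KO mean of 25.3 ± 1.88 CPM (SD, n = 3) in neuroectoderm was near the mean of 25.8 ± 2.40 CPM (SD, n = 3) in hHAR123 hESCs. The log2 fold change was 1.04 ± 0.07 (SE; adjusted p = 4.41e-18, edgeR quasi-likelihood test), a 2.06-fold difference. MVK was the only one of the 29 to exceed a log2 difference of 1, which 4.92% of all genes did upwards. It fell just under that size without hHAR123 replicate 1 or HAR123-KO replicate 2, or with total counts as the scale, at 0.99 each. MVK shares 225 exon bases with MMAB, a gene of cobalamin metabolism on the opposite strand.

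MVD, which forms isopentenyl diphosphate at the end of the mevalonate pathway, was at 17.97, 21.04 and 23.2 CPM in hHAR123 and at 35.7, 32.5 and 32.9 CPM in HAR123-KO. The HAR123-KO libraries lay above all hHAR123 libraries, and the log2 fold change was 0.72 ± 0.06 (SE; adjusted p = 9.61e-14, edgeR quasi-likelihood test). FASN was at 563, 623 and 616 CPM in hHAR123 and at 979, 931 and 925 CPM in HAR123-KO, which did not overlap. Its log2 fold change was 0.68 ± 0.03 (SE; adjusted p = 9.11e-26, edgeR quasi-likelihood test). These levels were still far below those of hESCs, where FASN was at 2554 to 2682 CPM in hHAR123.

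Other sterol enzymes rose less. After MVK and MVD came PMVK by 0.54, FDFT1, the squalene synthase, by 0.50 and ACAT2 by 0.49, followed by DHCR7 at 0.46. EBP, a sterol isomerase, LSS, the lanosterol synthase, FDPS, the farnesyl diphosphate synthase, and NSDHL, a sterol dehydrogenase, were higher by 0.42 to 0.43. IDI1 was higher by 0.29, SC5D, a sterol desaturase, by 0.23, SQLE by 0.21 and HMGCS1 by 0.18. SREBF1 was higher by 0.42, SREBF2 by 0.35 and INSIG1 by 0.34. SREBF2 was at 270.4, 282 and 277 CPM in hHAR123 and at 350.4, 342 and 345 CPM in HAR123-KO, so the groups did not overlap. Among the fatty acid enzymes, ACLY rose by 0.60, SCD by 0.38, FADS2, the delta-6 desaturase, by 0.30, ELOVL6, an elongase of palmitate, by 0.30, ACACA, the acetyl-CoA carboxylase, by 0.15 and FADS1 by 0.13. FADS1 did not pass with total counts as the scale (0.07, adjusted p = 0.0456, edgeR quasi-likelihood test).

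TM7SF2 alone fell. It was at 40.3, 38.5 and 40.9 CPM in hHAR123 and at 25.7, 27.6 and 27.5 CPM in HAR123-KO, without overlap. It fell by 0.54 ± 0.05 on the log2 scale (SE; adjusted p = 1.78e-12, edgeR quasi-likelihood test). The other genes of the lanosterol-to-cholesterol segment that passed, NSDHL, EBP, SC5D and DHCR7, were higher.

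Cell type markers differed in the same comparison. All 8 neural crest markers were higher in HAR123-KO ECTO, with summed levels of 1625 to 1639 CPM against 108 to 113 CPM in hHAR123. All 10 neuroectoderm markers were lower, with summed levels of 738 to 759 CPM against 1641 to 1655 CPM. Of 8 proliferation markers, 5 were higher and 1 lower, with summed levels of 1452 to 1458 CPM against 1299 to 1337 CPM. Of 8 pluripotency markers, 3 were higher and 2 lower, with summed levels of 1618 to 1651 CPM against 1712 to 1777 CPM. LIN28A made up most of that sum, at a mean of 1242 CPM against 1411 CPM. Means of L1TD1 (53.6 against 8.01 CPM) and ZFP42 (22.3 against 4.88 CPM) were higher, and that of POU5F1 (9.64 against 14.0 CPM) was lower. Of 6 surface ectoderm markers tested, 2 were higher and 3 lower. The summed levels of mesoderm markers stayed under 3 CPM in both genotypes. SOX17, a defining endoderm factor, was at 0.00 CPM in both, and the endoderm sum of 43.6 to 52.6 CPM came mainly from CXCR4. The share of counts from mitochondrial genes was 2.55% to 2.63% in HAR123-KO ECTO, 2.40% to 2.43% in mHAR123, 2.31% to 2.34% in cHAR123 and 2.16% to 2.21% in hHAR123. The part of these cell types and of that share in the difference of the 29 genes was not tested.

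The difference between HAR123-KO and hHAR123 depended on the stage. An interaction test over 12 libraries called 22 of the 29 genes more positive in ECTO than in ESC and 1 more negative, where 18.6% and 13.9% of all genes tested were called (edgeR quasi-likelihood test). The median difference of log2 fold changes was 0.37. MVK again had the largest, 1.17 ± 0.10 (SE; adjusted p = 4.56e-14, edgeR quasi-likelihood test), and TM7SF2 was the negative one at -0.37 ± 0.07 (SE). FADS1 was lower in HAR123-KO at the ESC stage and higher in ECTO, and its interaction was 0.26 ± 0.04 (SE; adjusted p = 6.07e-07, edgeR quasi-likelihood test). HMGCS1 and SC5D, which passed in ECTO, did not pass the interaction test, with 0.14 and 0.16.

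The replacement lines were compared with hHAR123 and HAR123-KO in neuroectoderm, and these comparisons share libraries. In the libraries labelled cHAR123, 4 genes were higher than in hHAR123 (5.9% of all genes) and 1 was lower (3.99%), with a median of 0.05. Those higher were FASN, ACLY, SREBF2 and FADS2, and STARD4 was lower by -0.26. The count of 5 became 3 without cHAR123 replicate 1 or cHAR123 replicate 3. In the libraries labelled mHAR123, 14 genes were higher (8.8% of all genes) and 0 lower (5.21%) in edgeR's test, with a median of 0.16. The lower count was also 0 at an unadjusted p under 0.05 and with DESeq2. DESeq2 called 12 genes higher, and edgeR called 10 to 13 genes with a library left out. The 14 were 5 of 18 sterol enzymes (MVK, FDPS, FDFT1, LSS and DHCR7), the regulators SREBF1, SREBF2 and INSIG1, and all fatty acid enzymes but ELOVL6. MVK was at 16.7, 15.3 and 17.2 CPM in mHAR123 and 14.4, 14.3 and 16.2 CPM in cHAR123, between hHAR123 and HAR123-KO in both. Its log2 fold change against hHAR123 was 0.39 ± 0.08 (SE; adjusted p = 0.000202) in mHAR123 and 0.25 ± 0.08 (SE; adjusted p = 0.0185) in cHAR123, and only the former passed (edgeR quasi-likelihood test). The difference between those 2 groups for MVK was 0.13 ± 0.07 (SE) and did not pass.

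All 8 neural crest markers were higher than in hHAR123 in these groups too, with summed levels of 258 to 271 CPM in cHAR123 and 303 to 309 CPM in mHAR123. The neuroectoderm sums, 1642 to 1667 CPM and 1606 to 1618 CPM, lay near that of hHAR123, but single genes differed within them. In hHAR123, cHAR123 and mHAR123, mean levels were 9.05, 4.08 and 5.55 CPM for RAX and 73.8, 60.5 and 57.6 CPM for SOX1. For NR2E1 they were 22.6, 18.1 and 14.3 CPM. Means of FEZF2, SIX3 and LHX2 were also lower in both groups than in hHAR123. Those of OTX2 and HES5 were higher in both, that of PAX6 in cHAR123 only and that of ZNF521 in mHAR123 only. Of 8 proliferation markers, 2 were higher in each and 1 lower in cHAR123, with sums of 1352 to 1367 CPM in cHAR123 and 1418 to 1470 CPM in mHAR123. How far these markers bear on the 29 genes was not tested.

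**Figure D4:**
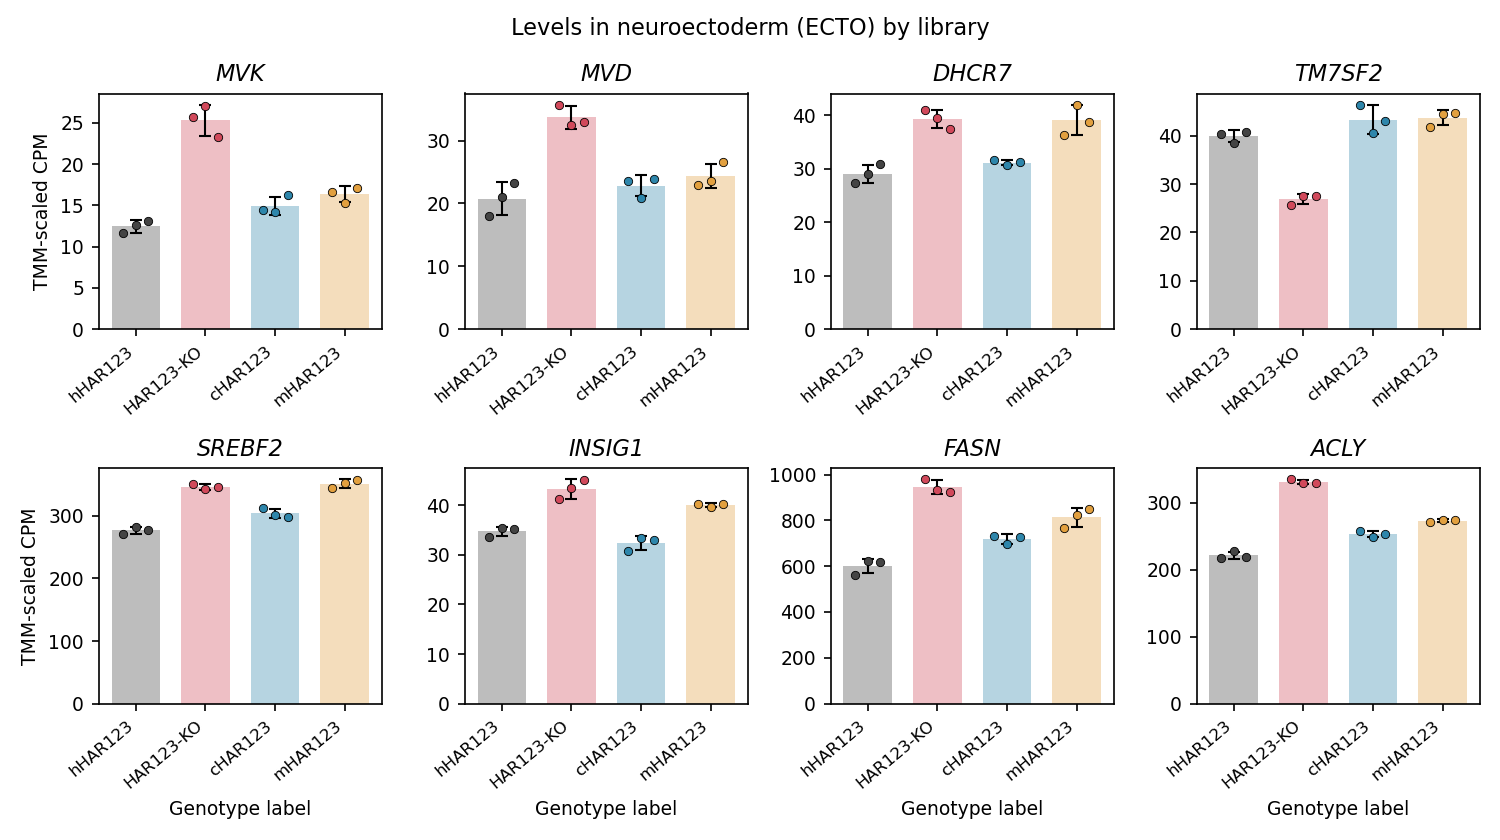
Levels of 8 of the 29 genes in neuroectoderm, in TMM-scaled CPM on axes from 0, by genotype label. Bars are means, error bars SD (n = 3) and points single libraries. HAR123-KO is highest for MVK, MVD, FASN and ACLY, mHAR123 matches it for DHCR7 and SREBF2, and TM7SF2 is lowest in HAR123-KO.

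Against HAR123-KO, 24 genes were lower and 1 higher in cHAR123 (20.3% and 18.8% of all genes), and 17 were lower and 1 higher in mHAR123 (18.7% and 17.8%). The higher gene was TM7SF2 in both, by 0.69 ± 0.05 and 0.70 ± 0.05 (SE). TM7SF2 was at 46.4, 40.6 and 43.0 CPM in cHAR123 and at 41.9, 44.6 and 44.6 CPM in mHAR123, all above the HAR123-KO libraries.

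Between the replacement lines, mHAR123 was higher than cHAR123 in 11 genes (2.64% of all genes) and lower in 0 (1.56%), which was also 0 at an unadjusted p under 0.05 and with DESeq2, with a median of 0.10. They included all 4 regulators, at 0.31 for INSIG1, 0.23 for STARD4, 0.21 for SREBF2 and 0.16 for SREBF1, and 5 of 7 fatty acid enzymes, with SCD at 0.28. Of the sterol enzymes only DHCR7, at 0.32, and FDFT1, at 0.21, passed. Some genes were singled out here after their values were seen. DHCR7 was at 36.4, 42.0 and 38.8 CPM in mHAR123, among the HAR123-KO values of 41.0, 39.5 and 37.5 CPM, and above the 31.6, 30.6 and 31.3 CPM of cHAR123. The difference between mHAR123 and HAR123-KO was -0.01 ± 0.05 (SE) for DHCR7 and 0.02 ± 0.03 (SE) for SREBF2.

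The ECTO means stood in the order hHAR123, cHAR123, mHAR123 and HAR123-KO for 9 of the 29 genes. The share of all genes in that order was not counted, and the ECTO names of cHAR123 and mHAR123 were uncertain. Of the 9, FASN and ACLY are given because their steps passed the test, a choice made after their values were seen. ACLY was at 218, 228 and 219 CPM in hHAR123, at 258, 249.6 and 254 CPM in cHAR123, at 271, 274 and 275 CPM in mHAR123 and at 335, 330.0 and 329 CPM in HAR123-KO, with no overlap between neighbours. Its steps on the log2 scale were 0.19 from hHAR123 to cHAR123, 0.10 from cHAR123 to mHAR123 and, with mHAR123 against HAR123-KO, -0.28. The middle step of ACLY did not pass with total counts as the scale (0.08, adjusted p = 0.0493, edgeR quasi-likelihood test), without any single cHAR123 library or without mHAR123 replicate 2. The FASN steps were 0.25, 0.18 and -0.22 in the same order. FASN was at 732, 695 and 728 CPM in cHAR123 and at 767, 822 and 850 CPM in mHAR123.

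Genes of neighbouring lipid pathways in HAR123-KO ECTO were counted in 6 lists, beside the same 24.2% higher and 19.9% lower of all genes. Of 8 genes of sterol sensing and SREBP processing, 3 were higher and 2 lower, with a median of 0.03; MBTPS1, the site-1 protease that cleaves SREBPs, was higher by 0.30, and ERLIN1, which binds SREBP complexes, by 0.23. Of 12 other sterol and isoprenoid enzymes tested, 4 were higher and 1 lower (median 0.06), led by PDSS1 at 0.60, FAXDC2 at 0.50 and PDSS2 at 0.41, of which PDSS1 and PDSS2 make the side chain of coenzyme Q. Of 16 genes of sterol transport, uptake and LXR response, 6 were higher and 2 lower (median 0.06). The summed level of this list was lower in HAR123-KO ECTO, at 779 to 793 CPM against 889 to 901 CPM in hHAR123 ECTO. STARD5, a sterol carrier, was higher by 1.45, SCARB1, an HDL receptor, was higher by 0.85, and ABCA1, a cholesterol exporter, was lower by -0.69.

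Of 19 other genes of fatty acid synthesis and elongation tested, 9 were higher and 7 lower (median 0.14). MID1IP1, which stimulates acetyl-CoA carboxylase, was higher by 1.68, HACD1 was higher by 1.02 and ELOVL7, an elongase, was lower by -1.13. Of 14 genes of acyl-CoA, phospholipid and triglyceride synthesis tested, 8 were higher and 2 lower (median 0.28), with ACSL1, an acyl-CoA synthetase, at 2.29, AGPAT2, an acyltransferase, at 1.81 and PCYT2 at 1.11. Fatty acid oxidation, the opposite pathway, had 11 of 20 genes higher and 1 lower (median 0.24), with ECI2 at 1.04, DECR1 at 1.01 and the coactivator PPARGC1A at 0.92. At the ESC stage, 7.06% of all genes tested were higher in HAR123-KO and 5.29% lower. These lists then held between 0 and 4 genes higher and between 0 and 3 lower.

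**Figure D5:**
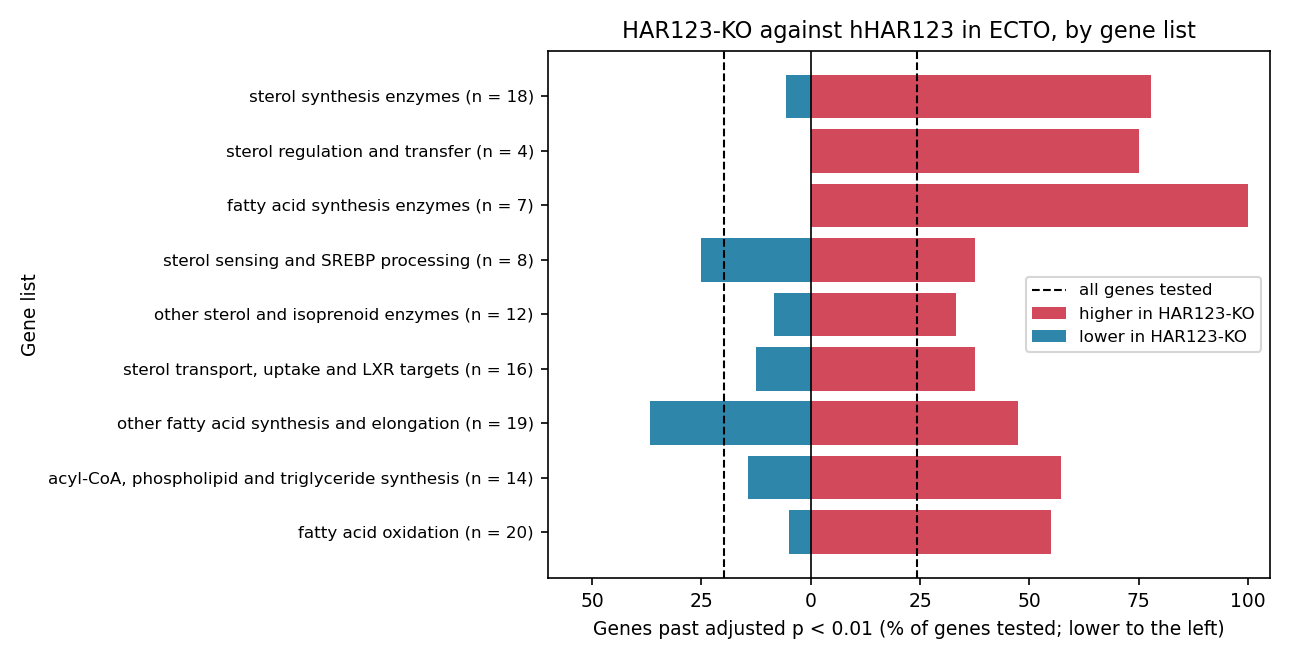
Share of genes past the test (horizontal axis, percent of genes tested; higher in HAR123-KO to the right, lower to the left) in HAR123-KO against hHAR123 ECTO, for the 3 groups of the 29 genes and 6 neighbouring lists (vertical axis). Dashed lines mark all genes tested, 24.2% higher and 19.9% lower. The groups of the 29 genes extend farthest to the right, with all 7 fatty acid enzymes higher.

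Some of the counts are less certain than others, since the sources used here do not say whether counting used strand, and reads of overlapping genes may be shared. CYP51A1 has 68.2% of its exon bases in common with a readthrough gene on the same strand and 67.8% with a further same-strand gene. EBP has 36.4% in common with a same-strand gene. HMGCS1 shares 37.7%, FDPS 18.6%, ACAT2 17.2% and IDI1 14.97% of exon bases with a gene on the opposite strand. FDPS also has 8 pseudogenes in the count table, IDI1 and CYP51A1 3 each, HSD17B7 2 and SCD 1, among which reads could be divided. TM7SF2 and MVK share 0.528% and 2.495% of exon bases with their neighbours VPS51 and MMAB.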

How the data were processed

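Bulk RNA-seq of 24 libraries was used. Per the labels and the methods of the study, ribosomal RNA was depleted, directional paired-end libraries were sequenced, reads were aligned to GRCh38 with STAR 2.5.2b and counted over exons with featureCounts (Subread). The deposited values are raw counts per Ensembl gene, without normalization. The authors' filtering of reads is contained in these counts. The entry of ANK2, broken over 3 lines, was left out.

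Samples were grouped by their titles. Libraries of each comparison were fitted alone in R 4.3.3 with edgeR 4.0.16 (filterByExpr, TMM, quasi-likelihood F test, Benjamini-Hochberg over all genes tested). A gene passed at an adjusted p under 0.01. Standard errors were taken as |log2 fold change| over the root of F. Fits were tested on simulated counts. Alternatives were DESeq2 1.42.0, other scalings, no filter, pooled fits, a replicate block, single libraries left out, other thresholds and, chosen after seeing the data, exchanged names of cHAR123 and mHAR123 ECTO. The 29 genes and all lists were chosen with earlier results of these data known.

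Genes given for every library were those over a log2 difference of 1 between genotypes, and the 3 largest increases and decreases in HAR123-KO against hHAR123 at each stage and between the stages of hHAR123. Others so given were added after their values were seen. From each other list up to 3 genes with the largest differences were named. Figures were drawn with Python 3.11.15 and matplotlib 3.10.9.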

Additional observations from a re-analysis of the deposited data

Results flagged for a closer look

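The difference between HAR123-KO and hHAR123 was not the same at both stages in 23 of the 29 genes, by an interaction term over 12 libraries in edgeR's quasi-likelihood test. The same test called 18.6% of all genes tested more positive in ECTO and 13.9% more negative. On the log2 scale, the ECTO difference exceeded the ESC difference by 1.17 for MVK, 0.74 for PMVK, 0.65 for MVD, 0.51 for NSDHL, 0.47 for FDFT1, 0.46 for EBP, 0.46 for DHCR7, 0.45 for ACAT2, 0.44 for FDPS, 0.37 for LSS, 0.26 for IDI1 and 0.22 for SQLE among the sterol enzymes. It was -0.37 for TM7SF2. Among the regulators it was 0.42 for SREBF2, 0.42 for SREBF1 and 0.38 for INSIG1. Among the fatty acid enzymes it was 0.71 for FASN, 0.61 for ACLY, 0.37 for SCD, 0.28 for FADS2, 0.26 for FADS1, 0.23 for ELOVL6 and 0.15 for ACACA.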

How the results depend on the processing

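No direction of a count reversed under the alternatives run, and of 114 settings other than left-out libraries 93 gave a count of genes past the test within 1.5 times the main one. For HAR123-KO against hHAR123 ESC (2 genes), total counts as the scale gave 1, a fit of all 12 ESC libraries 1, an adjusted p under 0.05 4 and the fold threshold 0. For cHAR123 ESC (13) total counts gave 7 and the fold threshold 0, for mHAR123 ESC (8) an adjusted p under 0.05 gave 13 and the fold threshold 0, and for cHAR123 ECTO (5) they gave 8 and 0. The fold threshold left 1 gene in HAR123-KO ECTO and in the interaction, 0 in mHAR123 ECTO and in the 3 comparisons among edited lines, and 13, 18 and 16 in the stage comparisons of HAR123-KO, cHAR123 and mHAR123. Left-out libraries gave 1 to 3 in HAR123-KO ESC, 7 to 11 in cHAR123 ESC and 3 to 6 in cHAR123 ECTO. They gave 10 to 13 in mHAR123 ECTO (14). Replicate numbers did not pair the samples (same-number correlations of deviations -0.054 to 0.057), and a replicate block moved cHAR123 ESC to 8 and mHAR123 ESC to 13 and no other count by over 1.5 times, with 25 in HAR123-KO ECTO. The median log2 fold change of the 29 genes was compared with the pooled within-group SD of their mean log2 CPM per library. It moved by more than this SD in 34 settings and not in 52. With a library left out, it did so in 34 fits and not in 56. The causes were not tested. With the names of cHAR123 and mHAR123 ECTO exchanged, both stage comparisons called 28 genes. No gene was near the limit of detection, but counts of CYP51A1 were as low as 78. Its difference of 0.22 in HAR123-KO ECTO did not pass, while SC5D at 0.23 and SQLE at 0.21, with more counts, did. For all 29 genes, 3 libraries per group limit the precision of small differences.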
